A study of Drosophila melanogaster with 6 samples.

Results

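The genes described here belong to a pair of families of the apical surface of insect epithelia, the Osiris genes and the genes of zona pellucida (ZP) domain proteins. They were chosen with earlier results of these data known, and their probe sets were then taken by name. Every probe set was used that names 1 gene, where that gene is called Osi followed by a number, or is dp, dy, dyl, m, nyo, neo, tyn, mey, pio, qsm, zye, cyr or pot. This gave 23 Osiris genes and 10 of the 13 ZP genes, together 33 of the 11982 genes that the arrays name, on 35 of 18769 probe sets. Each Osiris gene had 1 probe set, pio had 3, and dp, m and nyo were not analysed here.

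Osiris proteins are an insect-specific family of membrane and secreted proteins, made mostly by epithelia that lay down cuticle, such as the epidermis, the trachea and the foregut and hindgut. Most of their genes lie together at the Triplo-lethal locus, a dosage-sensitive stretch of chromosome arm 3R. ZP proteins are anchored in the apical membrane, are cut by proteases and polymerize in the extracellular matrix, where they shape denticles, wing hairs and the tracheal lumen. At stage 11 the germ band of the embryo is extended, the tracheal placodes invaginate and cuticle has not yet been laid down.

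Wild type embryos of the Oregon R strain and fkh6 mutants, whose strain is labelled Oregon R as well, were compared at stage 11. Whole embryos were used, with 3 Affymetrix arrays of each genotype. How closely the collections matched in age within that stage was not tested. The fork head (fkh) gene encodes the Drosophila FoxA transcription factor, which is required in the salivary glands and the gut. Both genotypes were put through an automated embryo sorter, their total RNA was amplified for hybridization, and each array stands for an independent collection. For in situ work the study sorted fkh6 homozygotes on the same type of instrument, as embryos that lacked the GFP of a balancer chromosome, and for the arrays its methods refer to an earlier description. The values are on the log2 scale, from robust multi-array averaging (RMA). Since the RNA came from whole embryos, fewer cells of a type and less RNA per cell cannot be told apart. With 3 arrays a group, precision is limited throughout.

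The probe set of fkh itself measured 10.23, 10.11 and 10.28 in wild type and 10.83, 10.62 and 10.64 in fkh (replicates 1, 2 and 3 in order, as throughout), and was called higher in the mutant (1.404-fold, just above the fold minimum, adjusted p 0.012 in limma). Array medians were 5.36 in each wild type array and 5.38 to 5.45 in fkh. The fkh arrays varied more among themselves, with a median SD of 0.146 against 0.0751 for wild type. Calls needed a limma p under 0.05, adjusted over all probe sets, together with a change of more than 1.4-fold. By this rule 7.80% of all genes were called higher in fkh and 7.89% lower.

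Of the 23 Osiris genes, 7 were called higher in fkh and 0 lower: Osi2, Osi6, Osi15, Osi17, Osi18, Osi19 and Osi20. Another 7 were over 1.4-fold higher and missed the call, and the remaining 9 differed by less than 1.4-fold. The median log2 fold change over the 23 genes was 0.97, beside -0.07 over all genes, and 11.0% of all genes were over 1.4-fold higher. All 3 fkh arrays lay above all 3 wild type arrays in 11 Osiris genes, an order found in 16.6% of all genes. Without adjustment, 13 of the 23 genes were higher at a p under 0.05 in limma (15.0% of all genes), and 2, Osi11 and Osi21, were lower at that p (22.4% of all genes) by less than 1.4-fold.

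On average 8 Osiris genes were over 10-fold higher, and 6 of them were called. Over all genes 75 were higher by that much, called or not (0.626%), so Osiris genes made up 10.7% of them, and they in turn made up 34.8% of the Osiris family. That count depended on the arrays used: without fkh replicate 1, or without fkh replicate 2, 4 Osiris genes were over 10-fold higher (Osi6, Osi15, Osi19 and Osi20), of 63 and 48 genes in all. Without wild type replicate 1 it was 7 of 70, since Osi2 was then 9.997-fold higher. With any other array left out it stayed at 8. In wild type the probe sets of 18 of the 23 Osiris genes averaged below the median probe set. No detection call was used, and a fold over such dim values depends on the background signal of the arrays.

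The genes with the largest differences were Osi6 and Osi15. The Osi6 probe set measured 4.13, 4.49 and 4.09 in wild type and 13.40, 13.67 and 9.74 in fkh replicates 1, 2 and 3. Relative to the wild type mean this was 573-fold, 690-fold and 45.5-fold in the 3 fkh arrays, so the mean difference of 8.03 on the log2 scale (standard error 0.97, adjusted p 0.0025) took in an array, fkh replicate 3, that was more than 10-fold below the other fkh arrays. The Osi15 probe set measured 4.15, 4.0 and 3.92 in wild type and 11.33, 11.76 and 9.19 in fkh. Osi15 is among the Osiris genes that act in the maturing tracheal tube, together with Osi9 and Osi19. Its difference was 6.74 (standard error 0.61, adjusted p 8.2e-04), and in fkh replicate 3 it was still 35.9-fold above the wild type mean.

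A further group of called genes also stood well above wild type in every fkh array. Osi20 measured 5.31, 5.31 and 5.15 in wild type and 10.46, 10.93 and 8.50 in fkh, 26.2-fold higher on average (adjusted p 0.0025). Osi2 measured 4.77, 4.81 and 4.81 in wild type and 8.50, 8.53 and 7.38 in fkh, 10.1-fold higher (adjusted p 7.5e-04). Of the called Osiris genes with a rise of over 10-fold, Osi2 had the smallest standard error, 0.29 on the log2 scale.

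In the other called genes, fkh replicate 3 lay much nearer to wild type than to the other fkh arrays. Osi19 measured 5.14, 5.11 and 5.13 in wild type and 10.42, 10.91 and 6.91 in fkh, 19.6-fold higher (adjusted p 0.025). The single arrays gave 39.3-fold, 55.1-fold and 3.45-fold for Osi19. Osi18 measured 5.62, 5.66 and 5.59 in wild type and 9.96, 10.40 and 6.79 in fkh, 10.7-fold higher (adjusted p 0.037). Osi17 was the gene nearest to the threshold among those called, with 5.26, 5.20 and 5.27 in wild type, 6.63, 7.01 and 5.62 in fkh, and a 2.26-fold rise (adjusted p 0.048). Osi17 and Osi18 lost their calls without fkh replicate 2, and Osi17, Osi18 and Osi19 without any 1 of fkh replicate 1 and the 3 wild type arrays.

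**Figure D1:**
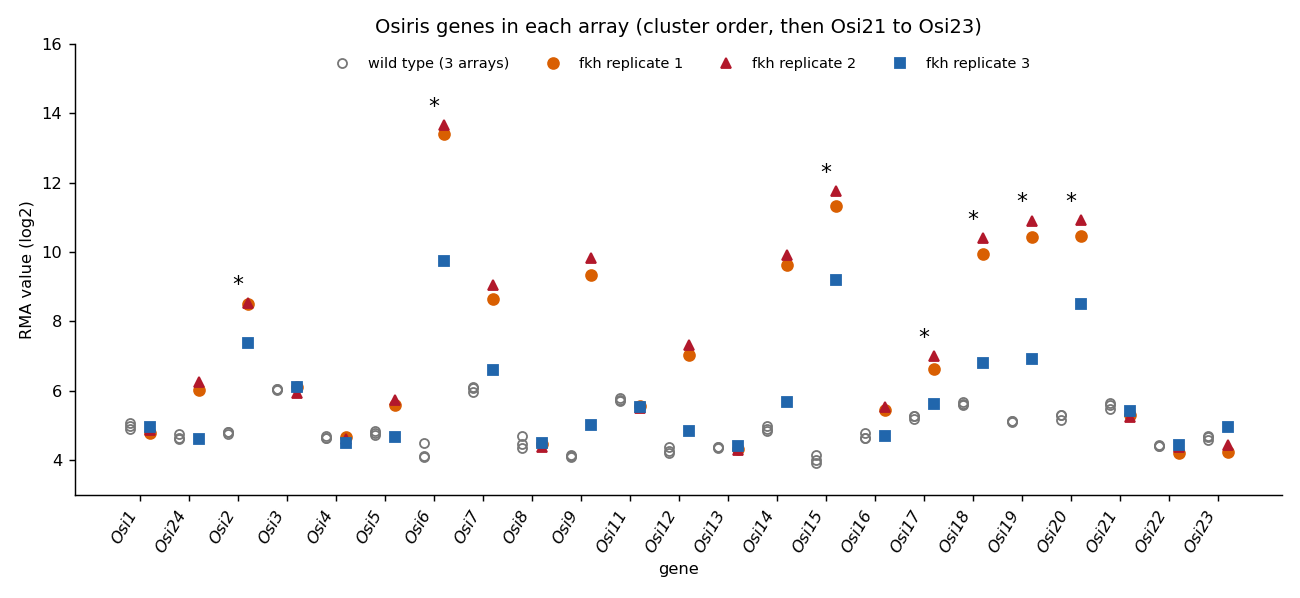
RMA value (log2) of each of the 23 Osiris genes in each array, with the 20 cluster genes in chromosome order followed by Osi21, Osi22 and Osi23. Open circles are the 3 wild type arrays, filled symbols the 3 fkh arrays, and asterisks mark the 7 genes called higher; the blue squares of fkh replicate 3 lie below the other fkh arrays in all 14 genes that were over 1.4-fold higher.

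Of the 7 Osiris genes that were over 1.4-fold higher without a call, 4 had fkh arrays that did not overlap with wild type. All fkh arrays lay above wild type in 16.6% of all genes. The 7 were picked by their mean rise, which favours such an order, so all genes are not a like set. Osi9 measured 4.14, 4.13 and 4.10 in wild type and 9.35, 9.84 and 5.02 in fkh, which is 37.4-fold, 52.4-fold and 1.86-fold above the wild type mean in the 3 arrays. Its mean difference of 3.94 had a standard error of 1.16 and an adjusted p of 0.061. Osi14 had the same shape, with 4.98, 4.91 and 4.84 in wild type, 9.63, 9.92 and 5.69 in fkh and an adjusted p of 0.063. These 2 genes thus differed by over 10-fold on average, with fkh replicate 3 under 2-fold above wild type in each.

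Osi12 and Osi7 were the genes just outside the threshold. Osi12 measured 4.28, 4.22 and 4.38 in wild type and 7.04, 7.31 and 4.84 in fkh, 4.29-fold higher on average (adjusted p 0.055). Osi7 measured 5.96, 6.08 and 6.12 in wild type and 8.66, 9.07 and 6.60 in fkh, 4.15-fold higher (adjusted p 0.055). Both missed the adjusted threshold by a small margin, and their fkh arrays lay above every wild type array.

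In Osi24, Osi5 and Osi16, fkh replicate 3 was within or below the wild type range while the other fkh arrays were above it. Osi24 measured 4.61, 4.76 and 4.63 in wild type and 6.02, 6.27 and 4.62 in fkh, a mean difference of 0.97 (standard error 0.40, adjusted p 0.148). The mean differences of Osi5 and Osi16 were 0.56 and 0.52, with adjusted p of 0.204 and 0.150. For these 3 genes the groups overlapped.

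All 14 Osiris genes that were over 1.4-fold higher ordered the fkh arrays alike, with replicate 2 highest, replicate 1 next and replicate 3 lowest. That order was found in 17.7% of all genes and in 55.7% of the 1314 genes that were over 1.4-fold higher, and in 0 of the 9 Osiris genes under 1.4-fold. Replicates 1 and 2 of fkh were close, 0.03 to 0.49 apart on the log2 scale, whereas replicate 3 lay 0.76 to 4.33 below replicate 1. The SD among fkh arrays exceeded 1 log2 unit in 9 Osiris genes, against 1.29% of all genes, and the largest was 2.65, in Osi9. Among wild type arrays the SD of the Osiris genes ran from 0.014 to 0.218. There 18 of the 23 averaged below the median probe set, and how far dim signal limited these SDs was not tested. Without fkh replicate 3 all 14 genes were called higher, where 10.4% of all genes were. The 14 were picked by their mean rise and had replicate 3 lowest, which favours such calls, so all genes are not a like set.

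The 9 Osiris genes that differed by less than 1.4-fold were Osi1, Osi3, Osi4, Osi8, Osi11, Osi13, Osi21, Osi22 and Osi23. Their log2 differences ran from -0.25 to 0.01, with standard errors of 0.068 to 0.174, and none passed the adjusted threshold. In Osi11 and Osi21 all 3 fkh arrays lay below all 3 wild type arrays, an order found in 27.5% of all genes. Osi11 measured 5.79, 5.70 and 5.74 in wild type and 5.56, 5.5 and 5.53 in fkh, a difference of -0.22 (adjusted p 0.077). Osi21, a gene known from photoreceptors, measured 5.66, 5.49 and 5.58 in wild type and 5.31, 5.24 and 5.41 in fkh, a difference of -0.25 (adjusted p 0.086). Osi23, known from the pores of olfactory bristles, was the one of the 9 with the largest SD among fkh arrays, at 4.25, 4.43 and 4.95 beside 4.67, 4.59 and 4.70 in wild type.

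By position, 20 of the 23 Osiris genes lie in 1 cluster on chromosome arm 3R, from Osi1 to Osi20, among 28 protein-coding genes. Gene order and arms were read from the RefSeq table of Release 6, and since the array values name no genome build no coordinates are given. All 14 genes that were over 1.4-fold higher lie in this cluster, and the 3 Osiris genes outside it, Osi21 on 2L and Osi22 and Osi23 elsewhere on 3R, did not reach that fold. Within the cluster, genes of large and of small difference lay side by side, as Osi6 and Osi7 do with Osi8, and the run from Osi17 to Osi20 at its end was called throughout. A small difference was thus found in 6 of the 20 cluster members.

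Another 5 measured genes of the cluster were not taken by the naming rule: Osi10b, an Osiris gene by name, NPFR, a neuropeptide receptor gene, CG15597, CG15594 and CG31560. Of these, 0 were called by limma, where 15.7% of all genes were, and 0 had an unadjusted p under 0.05, where 37.4% of all genes did, so that so few genes do not stand apart by these counts. Their log2 differences ran from -0.06 to 0.19. Osi10b measured 4.66, 4.66 and 4.82 in wild type and 4.90, 4.94 and 4.75 in fkh, and its groups overlapped (adjusted p 0.30). Osi10a was not analysed here.

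Among the 10 protein-coding genes before the cluster, 3 were called higher, and among the 10 after it 1 was called higher and 2 lower, beside 7.80% and 7.89% of all genes. These are Gasp, a chitin-binding protein gene (40.0-fold), Obp83g, an odorant-binding protein gene (8.36-fold), and CG31559 (9.01-fold) before the cluster, and CG17919 (5.53-fold higher), CG18048 (1.52-fold lower) and Pak, a kinase gene (1.52-fold lower), after it. They were chosen for mention after their values were seen.

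**Figure D2:**
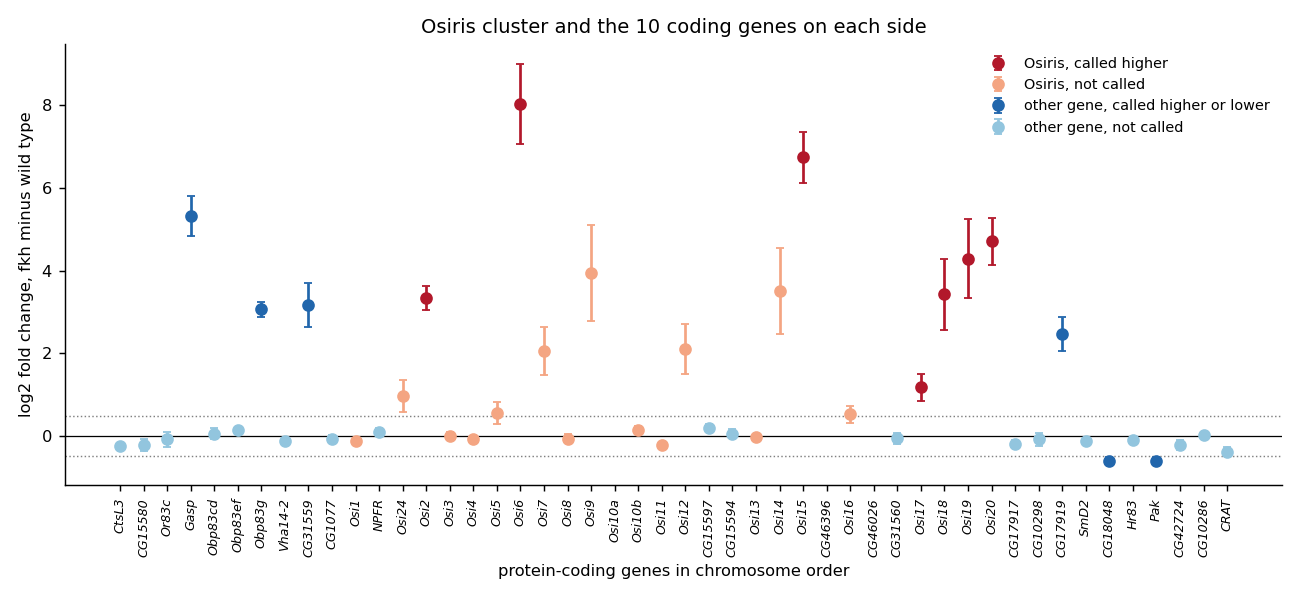
Log2 fold change (fkh minus wild type, points) with its standard error (bars) for the protein-coding genes of the Osiris cluster and 10 on each side, in chromosome order and not to scale; dotted lines mark a 1.4-fold difference, and names without a point had no probe set named. Osiris genes reach 8.03, and the 5 measured cluster genes outside the naming rule, Osi10b among them, lie between -0.06 and 0.19.

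The 10 ZP genes are spread over the genome, with dy, pot, tyn and cyr on the X chromosome, dyl and zye on 3L, neo and mey on 3R, and qsm and pio on 2R. Of the 10, 3 were called higher in fkh (pot, dy and tyn) and 0 lower, beside 7.80% and 7.89% of all genes. The median log2 fold change over the 10 genes was 0.82. In 7 of them all fkh arrays lay above all wild type arrays (16.6% of all genes). At an unadjusted p under 0.05 in limma, 7 were higher (15.0% of all genes) and 0 lower (22.4% of all genes).

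The called ZP genes rose in every fkh array. Papillote (pot) encodes a ZP protein that holds the wing epithelium to its cuticle, and its probe set measured 3.94, 4.31 and 4.06 in wild type and 6.05, 7.19 and 5.77 in fkh. The rise was 4.71-fold on average (adjusted p 0.0064), with replicate 2 above the other fkh arrays by over 1 log2 unit. Dusky (dy), which sets the size and shape of wing cells, measured 4.84, 4.82 and 4.62 in wild type and 6.78, 7.03 and 6.07 in fkh, with an SE of 0.23 on the log2 scale (adjusted p 0.0028). Trynity (tyn), which shapes embryonic denticles, measured 8.86, 8.98 and 8.74 in wild type and 10.19, 10.58 and 9.67 in fkh, 2.44-fold higher (adjusted p 0.0089). The probe set of tyn was thus well above the median probe set in wild type already, while those of pot and dy were below it.

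The largest average difference among the ZP genes belonged to dusky-like (dyl), which acts in wing hairs, denticles and the ridges of the tracheal cuticle, and it missed the call. It measured 3.87 in each wild type array and 8.97, 9.47 and 4.79 in fkh, or 34.2-fold, 48.6-fold and 1.89-fold above the wild type mean. Its mean difference was 3.87 with a standard error of 1.13 (adjusted p 0.059). This is the pattern of Osi9 and Osi14, and dyl was the ZP gene with an SD among fkh arrays above 1 log2 unit.

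The other denticle genes of the family differed less. Neyo (neo) measured 9.11, 9.06 and 8.84 in wild type and 9.72, 10.40 and 9.41 in fkh, 1.79-fold higher with groups that did not overlap (adjusted p 0.056). Morpheyus (mey) measured 8.29, 8.61 and 8.43 in wild type and 9.48, 10.11 and 8.15 in fkh. The fkh replicate 3 array was below every wild type array for mey, while the other fkh arrays were above them, and the mean difference of 0.81 did not pass the test (standard error 0.45, adjusted p 0.273). Zye measured 4.54, 4.36 and 4.38 in wild type and 4.61, 4.87 and 4.79 in fkh (1.26-fold, adjusted p 0.057). For cypher (cyr) the difference was 0.08 and the groups overlapped (adjusted p 0.670).

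The remaining members were qsm and pio. Quasimodo (qsm), which acts in the light input to the circadian clock, measured 8.0, 8.0 and 7.84 in wild type and 8.28, 8.38 and 8.38 in fkh. It passed the adjusted threshold (p 0.017) with a fold of 1.32, under the fold minimum, and its fkh arrays lay close together. Piopio (pio), which anchors the apical membrane to the matrix of the trachea and the wing, measured 8.32, 8.33 and 8.10 in wild type and 8.24, 8.06 and 7.96 in fkh, a difference of -0.16 (adjusted p 0.345). Its other probe sets gave -0.10 and 0.07 (adjusted p 0.411 and 0.853), so none of the 3 was called.

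**Figure D3:**
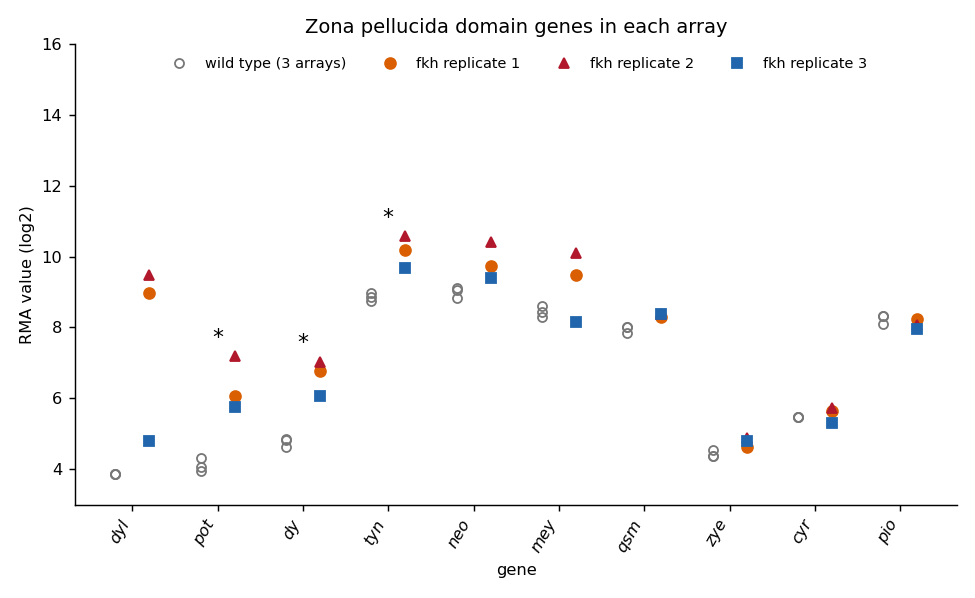
RMA value (log2) of each of the 10 ZP genes in each array, from the largest to the smallest difference. Open circles are the 3 wild type arrays, filled symbols the 3 fkh arrays and asterisks the 3 genes called higher; in dyl and mey fkh replicate 3 (blue square) lies far below the other fkh arrays.

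All 6 ZP genes that were over 1.4-fold higher had the same order of fkh arrays as the Osiris genes, replicate 2 above 1 above 3. That order was found in 55.7% of the 1314 genes that were over 1.4-fold higher. The gap from replicate 1 to replicate 3 ran from 0.29 to 4.18 on the log2 scale in these 6 genes. Without fkh replicate 3, all 6 were called higher, where 10.4% of all genes were. These 6 too were picked by their mean rise and had replicate 3 lowest, which favours such calls. In qsm and zye, by contrast, replicate 3 was not the lowest.

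Genes that work beside these families were counted from short lists, beside 7.80% of all genes called higher and 7.89% lower. The lists, like those of the markers below, were chosen with earlier results of these data known. ZP proteins are cut by furin-type proteases and by Notopleural (Np), and of the 2 such genes measured Np was called higher (1.77-fold) and Fur2 was not called (1.22-fold, adjusted p 0.622). All 7 measured genes of the chitin matrix were called higher, with a median log2 fold change of 3.36, among them obst-A, a chitin-binding protein gene (21.5-fold), serp, a chitin deacetylase gene (20.0-fold), and kkv, the chitin synthase gene (5.65-fold). Of the 5 other effectors of epidermal hairs, ect (6.75-fold) and sha (2.38-fold) were called higher and 3 were not called: sn, f and y. Both sn and y were 1.33-fold higher, under the fold minimum, with limma adjusted p of 0.019 and 0.033 and groups that did not overlap. For f the groups overlapped (adjusted p 0.485).

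Of 8 measured regulators of epidermal and tracheal genes, most of them transcription factors, 0 were called higher by limma and 1 lower, which is close to the share of all genes called (15.7% in either direction). The gene called lower was tai, which encodes a nuclear receptor coactivator (1.82-fold lower). SoxN, a transcription factor gene of the epidermis, was 1.33-fold lower, under the fold minimum, with an adjusted p of 0.037 and groups that did not overlap. For ovo, whose Shavenbaby form switches on ZP genes in denticle cells, the log2 difference was -0.21 (adjusted p 0.527), with a wild type mean of 10.65 and fkh values of 10.74, 10.62 and 9.94. The other regulators, grh, Blimp-1, vvl, rib and kni, were higher on average, from 0.01 in kni to 0.42 in vvl (adjusted p 0.121 in limma). None of them was called. The median over the 8 genes was 0.03.

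Markers of other cell types and of egg-derived RNA were counted too, beside 7.80% of all genes called higher and 7.89% lower. All 5 measured muscle genes (Mlc1, Mlc2, Tm2, Prm and up) were called higher, with a median log2 fold change of 4.54. Their mean level per array was 4.62 to 4.86 in wild type and 9.48, 10.10 and 8.13 in fkh, so they had the array order of the Osiris genes, in 5 of 5 genes. Of 11 measured maternal transcripts 0 were called by limma in either direction (15.7% of all genes). At an unadjusted p under 0.05 there were 0 of them as well (37.4% of all genes). Replicate 2 was the highest fkh array in 10 of these 11 (26.7% of all genes), and replicate 3 was the lowest in 8 (33.5% of all genes). Of 3 salivary gland genes, 2 were lower (PH4alphaSG1 1.61-fold and PH4alphaSG2 1.80-fold) and sage was not called. The mean over all 23 Osiris genes was 4.89 to 4.92 in wild type and 7.22, 7.41 and 5.87 in the fkh arrays. What part muscle or maternal RNA had in the Osiris and ZP values was not tested.

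**Figure D4:**
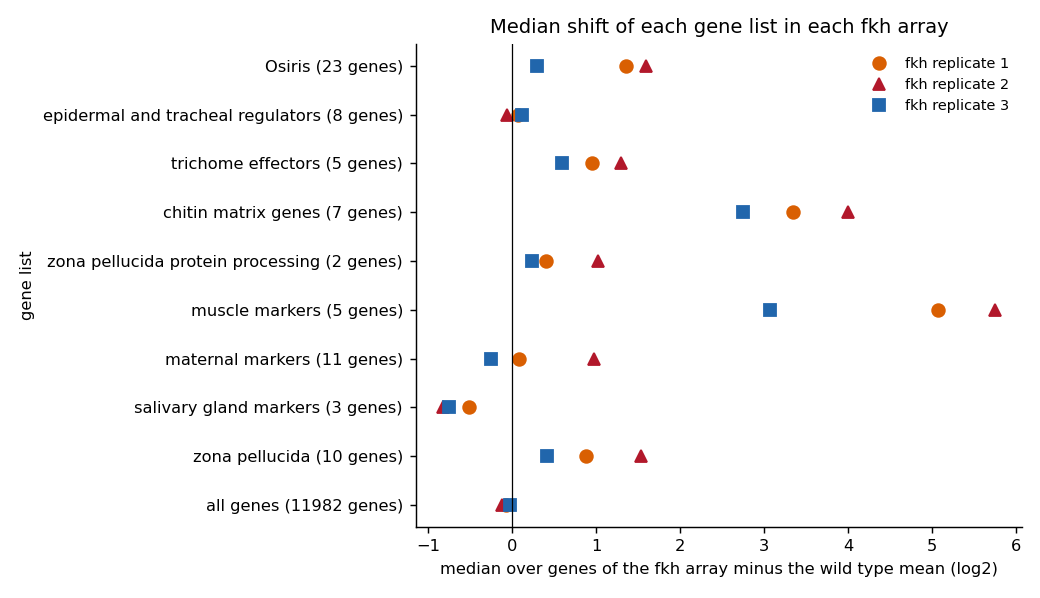
Median over the genes of each list of the value in 1 fkh array minus the wild type mean (log2), for fkh replicates 1, 2 and 3. Replicate 2 lies highest and replicate 3 lowest in 7 of the 9 lists: the Osiris, ZP, ZP processing, trichome, chitin matrix, muscle and maternal lists.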

How the data were processed

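Total RNA of sorted whole embryos was hybridized to Affymetrix Drosophila Genome 2.0 arrays, 3 per genotype. The deposited values are log2 values: per the labels the authors used RMA and Partek, which corrects background, sets all arrays to the same quantiles and summarizes each probe set. Neither version was given. Columns of values left unused number 0.

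The array annotation named 1 gene for 13647 probe sets, several for 402 and none for 4720. Names, arms and gene order came from the RefSeq table of Release 6. Where a gene had several probe sets, the one with the highest mean over all arrays stood for it. The genotypes were compared over all 6 arrays with lmFit and eBayes of limma 3.58.1 (R 4.3.3), with Benjamini-Hochberg adjustment over all 18769 probe sets. The smallest two-sided exact permutation p for 3 against 3 arrays is 0.1, so no such test was used. The fit was tested on simulated data. Python 3.11.15 and pandas 2.3.3 made the tables.

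The members and lists were chosen with earlier results of these data known. Values in every array were to be given for called members and those near the limits, and in other lists up to 3 called genes with the largest change were to be named; any other gene was named with its values known. The 16 alternatives were a per-gene test with equal variances and no pooled spread, an intensity trend, array weights, cyclic loess, ribosomal protein scaling, leaving out the dimmest 25.0% of probe sets, a replicate block, the mean of probe sets, a fold minimum of 2 or none, and leaving out each array.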

Additional observations from a re-analysis of the deposited data

How the results depend on the processing

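Of the main counts, 7 Osiris and 3 ZP genes higher in fkh, the first ran from 4 to 14 and the second from 3 to 6 when each array was left out in turn. Each wild type array left out gave 4 Osiris genes, without Osi17, Osi18 and Osi19. Over all genes the share called higher was then 4.67%, 5.1% and 4.47%, beside 7.80% with all arrays. Leaving out fkh replicate 1 gave 4, fkh replicate 2 gave 5, and fkh replicate 3 gave 14 Osiris genes, adding Osi5, Osi7, Osi9, Osi12, Osi14, Osi16 and Osi24, and 6 ZP genes, adding dyl, mey and neo. Of all genes, 6.88%, 7.47% and 10.4% were called higher without fkh replicates 1, 2 and 3. A test with equal variances and no pooled spread called 4 Osiris genes and 1 ZP gene, an intensity trend 11 and 5, array weights 14 and 6, and ribosomal protein scaling 11 and 7. In that order, these settings called 2.7%, 8.34%, 9.87% and 11.8% of all genes higher. Leaving out the dimmest 25.0% of probe sets gave 9 Osiris genes and cyclic loess 6, beside 9.25% of the genes kept and 8.7% of all genes. Dimness was judged by the mean over all 6 arrays, so genes dim in wild type could stay in through high fkh values. Osi4, Osi8, Osi13, Osi22 and Osi23, all under 1.4-fold, were left out by it, so the 9 is not a like count. Counts of genes called lower were 0 in every setting run. Replicate numbers did not pair the arrays (deviations correlated at 0.072, 0.0727 and -0.0785), and with a replicate block 6 Osiris genes (without Osi17) and 4 ZP genes (with neo) were higher. The block called 7.9% of all genes higher. The median log2 difference over all genes was -0.07, 0.015 under cyclic loess and 0.092 under ribosomal protein scaling, and the share of all calls that were higher was 49.7%, 64.9% and 73.4%.

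The sign of some small, uncalled differences turned. Under cyclic loess these were Osi4 (0.0083), Osi8 (0.0064) and Osi13 (0.033), and under ribosomal protein scaling Osi1 (0.051), Osi4 (0.10), Osi8 (0.10), Osi13 (0.13), Osi22 (0.077), Osi23 (0.052) and pio (8e-05). With 1 array left out, the difference ran from -0.014 to 0.068 in Osi3, from -0.14 to 0.030 in Osi8, from -0.32 to 0.035 in Osi23 and from -0.0010 to 0.21 in cyr. The cause was not tested. The average fold of Osi6 ran from 162 to 629 and that of Osi15 from 75.4 to 184 over these leave-outs. Dim wild type signal and 3 arrays per genotype limit every fold.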
